A study of Mus musculus with 9 samples.

Results

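The 10 genes followed here, immediate-early and AP-1 genes, were measured in the cell types of the mouse heart after ischemia-reperfusion: Fos, Fosb, Fosl1, Fosl2, Jun, Junb, Jund, Atf3, Egr1 and Myc. They were chosen by name, as the FOS and JUN families with Atf3, Egr1 and Myc, and make up 10 of the 32285 genes in the count matrices. Single-nucleus RNA sequencing was done on hearts of male wild-type (WT) mice, 9 to 10 weeks old, in 3 groups of 3 libraries. NS-Sham mice had a thoracotomy alone and received normal saline (NS). NS-I/R mice received saline and had the left anterior descending coronary artery closed for 45 min, with 24 h of reperfusion (I/R). Enpa-I/R mice had the same operation and received enpatoran, a TLR7 antagonist, at 5 mg/kg. All mice had 2 intraperitoneal injections, the first 1 h before ischemia. The series text puts the second 2 h after the first, and the treatment protocol puts it at the end of ischemia. The libraries are numbered as replicates, and nothing in the labels says in words that each came from a different mouse, so the p-values measure the spread between these libraries.

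AP-1 is a dimer of bZIP transcription factors, most often a FOS protein with a JUN protein. Immediate-early genes such as Fos, Egr1 and Jun are switched on within minutes of growth factor, cytokine or stress signals, through MAP kinases and factors already present in the cell, and their RNAs are short-lived. Fosl1 and Fosl2 encode FOS-related proteins that usually follow later and last longer, Atf3 encodes a stress-induced bZIP factor that pairs with JUN proteins, Egr1 a zinc finger factor, and Myc a factor that drives growth and ribosome production. In the heart, members of this group are known to respond to ischemia, stretch and inflammation.

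The promoters of 3 members are shown because each carries a motif bound by ATF, CREB or AP-1 factors close to its start. They are the 250 bases upstream of the RefSeq start (GRCm38.p6), 5′ to 3′ on the strand of the gene, with the motif in capitals: TGACGT or its reverse complement in Fos and Atf3, TGACATCA in Jun.
Fos, chr12:85473640-85473889, plus strand: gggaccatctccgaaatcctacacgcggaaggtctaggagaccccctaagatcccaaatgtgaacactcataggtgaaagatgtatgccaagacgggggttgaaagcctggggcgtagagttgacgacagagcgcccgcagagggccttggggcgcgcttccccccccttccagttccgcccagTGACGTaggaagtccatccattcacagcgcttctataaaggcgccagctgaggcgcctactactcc
Jun, chr4:95052223-95052472, minus strand: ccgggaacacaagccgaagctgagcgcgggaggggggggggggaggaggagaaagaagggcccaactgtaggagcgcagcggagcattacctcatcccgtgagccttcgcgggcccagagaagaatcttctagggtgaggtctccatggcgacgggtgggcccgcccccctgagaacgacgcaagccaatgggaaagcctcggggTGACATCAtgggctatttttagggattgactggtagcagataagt
Atf3, chr1:191183334-191183583, minus strand: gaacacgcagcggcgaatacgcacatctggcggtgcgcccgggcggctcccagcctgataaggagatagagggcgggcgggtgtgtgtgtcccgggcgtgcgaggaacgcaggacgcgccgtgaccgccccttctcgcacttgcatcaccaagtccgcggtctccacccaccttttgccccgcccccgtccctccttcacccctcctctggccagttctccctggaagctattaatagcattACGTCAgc
Motifs were searched on both strands in the 300 bases from 250 before to 50 after each start, for the 7 members with an entry (Fos, Fosb, Fosl2, Jun, Junb, Jund and Atf3) and for 32851 promoters. The motif TGACGT lay 66 bases before the start of Fos and 8 before that of Atf3, and 7.51% of all promoters held it. The AP-1-like motif TGACATCA lay 45 bases before the start of Jun, and 3.62% of all promoters held it. The AP-1 motif TGANTCA was in none of the 7 windows and in 7.81% of all, and the CArG box bound by SRF was likewise in none of the 7 and in 1.63% of all. Sites outside the windows were not searched. The Jund window, chr8:70697489-70697788, ends before the annotated start of Jund at 70698949, so it may miss that promoter. TATAAA was in the windows of Fos and Junb and in 13.6% of all, and overlapped none of the other motifs in Fos. CCAAT was in those of Atf3, Jun and Junb and in 37.4% of all, and GGGCGG in 5 of the 7 and in 35.7% of all. In the GRCm38 annotation Fos lies at chr12:85473890-85477273, Jun at chr4:95049034-95052222, and Fosl1 at chr19:5447547-5455946. Jun, Junb and Jund have a single exon. Fosl1, Jun, Junb and Jund overlap another counted gene (Ccdc85b, Junos, Prdx2 and Gm11175), and whether the counting used strand is not given in the sources used here, so some of their reads could belong to the partner.

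The 9 libraries held 19651794 to 38970153 unique molecular identifiers (UMIs, each a counted RNA molecule), and 3160 to 6471 nuclei per library were kept, 41979 in all. Nuclei were clustered with the 10 genes left out, and clusters were named from marker genes, so that class names here are rebuilt and written as "X-like". Libraries shared 5 to 20 barcodes per pair. UMIs were summed per library and class and scaled for depth with TMM factors, as CPM. A gene is called where the Benjamini-Hochberg adjusted p of edgeR's quasi-likelihood test, over all genes tested in that class and comparison, is under 0.05. Both comparisons use the same NS-I/R libraries, so they are not independent. Sums over all nuclei also move with the mix of cells: neutrophil-like nuclei made up 0.0378% of nuclei in sham, 8.96% after I/R with saline and 2.46% with enpatoran. In such sums fewer cells of a type and less RNA per cell cannot be told apart.

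After I/R with saline, RNA of most members was higher than in sham, with Fosl1 and Myc higher in each of the 5 larger classes where they could be tested. Over all nuclei 6 of 10 members were called, each of them higher (Fosl1, Fosl2, Junb, Atf3, Egr1 and Myc), against 47.8% of all genes (23.9% higher, 23.9% lower). In cardiomyocyte-like nuclei 8 of 10 were called, each higher, all but Jun and Jund, against 45.2% of all genes (23.6% higher, 21.6% lower). In fibroblast-like nuclei 4 of 10 were called (Fosl1, Fosl2, Junb and Myc), against 46.5% of all genes (23.2% higher, 23.2% lower), so that members were called no more often than all genes taken in either direction. In endothelial-like nuclei 6 of 10 were called (Fosl1, Fosl2, Junb, Jund, Atf3 and Myc), against 34.3% of all genes (17.9% higher, 16.4% lower). Macrophage-like nuclei gave 5 of 8 tested (Fosl2, Jun, Junb, Egr1 and Myc), against 34.8% of all genes (17.9% higher, 16.9% lower), and pericyte-like nuclei 7 of 8 tested (all but Jund), against 23.9% of all genes (12% higher, 11.9% lower). The direction was the other in smooth muscle-like nuclei, where 2 of 7 tested members were called and both were lower (Jun and Atf3), against 6.33% of all genes (2.73% higher, 3.59% lower). In lymphatic endothelial-like nuclei 1 of 5 tested was called (Junb, higher), against 13.6% of all genes (6.03% higher, 7.58% lower). The median log2 fold change of the 10 members was 1.54 over all nuclei, 2.61 in cardiomyocyte-like, 0.84 in fibroblast-like and 1.21 in endothelial-like nuclei, while the median of all genes was between -0.01 and 0.01.

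Under enpatoran no member was called higher in any class, and in each single class tested in both comparisons fewer were called than after injury. Over all nuclei 6 of 10 were lower in Enpa-I/R than in NS-I/R (Fosl1, Jun, Junb, Atf3, Egr1 and Myc), against 16.5% of all genes (7.75% higher, 8.74% lower). Cardiomyocyte-like nuclei gave 4 of 10 (Fosl1, Atf3, Egr1 and Myc), against 18.6% of all genes (7.52% higher, 11.1% lower), fibroblast-like 2 of 10 (Fosl1 and Myc), against 9.55% of all genes (3.73% higher, 5.82% lower), and endothelial-like 3 of 10 (Fosl1, Egr1 and Myc), against 6.3% of all genes (2.68% higher, 3.62% lower). Macrophage-like nuclei gave 1 of 8 (Myc), against 6.34% of all genes (2.91% higher, 3.43% lower), pericyte-like 4 of 8 (Fosl2, Jun, Atf3 and Egr1), against 5.65% of all genes (2.76% higher, 2.89% lower) and neutrophil-like nuclei, fitted with the 6 I/R libraries, 1 of 8 (Egr1), against 1.69% of all genes (0.988% higher, 0.7% lower). In smooth muscle-like nuclei edgeR called 0 of 7 members, with 3 at an unadjusted p under 0.05 and 1 called by DESeq2, against 0% of all genes (0% higher, 0% lower). In lymphatic endothelial-like nuclei edgeR called 0 of 5, with 1 at an unadjusted p under 0.05 and 0 called by DESeq2, against 1.08% of all genes (0.749% higher, 0.329% lower). The median over the 10 members was -1.22 over all nuclei, -1.31 in cardiomyocyte-like, -1.06 in fibroblast-like and -0.63 in endothelial-like nuclei, against 0.00 to 0.01 for all genes.
These enpatoran counts moved with single libraries. Without NS-I/R replicate 3 they were 7 in cardiomyocyte-like, 6 in fibroblast-like, 5 in endothelial-like, 4 in macrophage-like, 9 in pericyte-like, 2 in smooth muscle-like and 4 in neutrophil-like nuclei. Over all nuclei the count was 2 when NS-I/R replicate 1 or any 1 Enpa-I/R library was left out. In cardiomyocyte-like nuclei leaving out replicate 1 or 2 of either I/R group gave 2, and leaving out Enpa-I/R replicate 3 gave 1. In fibroblast-like nuclei leaving out replicate 1 or 2 of NS-I/R, or any 1 Enpa-I/R library, gave 0. In endothelial-like nuclei the count was 1 when replicate 2 of NS-I/R or replicate 3 of Enpa-I/R was left out. In macrophage-like nuclei leaving out replicate 1 of NS-I/R, or replicate 2 or 3 of Enpa-I/R, gave 0. In pericyte-like nuclei leaving out replicate 1 of NS-I/R or replicate 2 of Enpa-I/R gave 1, and leaving out replicate 2 of NS-I/R, or replicate 1 or 3 of Enpa-I/R, gave 0. In neutrophil-like nuclei leaving out any 1 Enpa-I/R library gave 0. The only injury count that moved by over 1.5 times was that of smooth muscle-like nuclei, which was 4 without NS-I/R replicate 3.

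**Figure D1:**
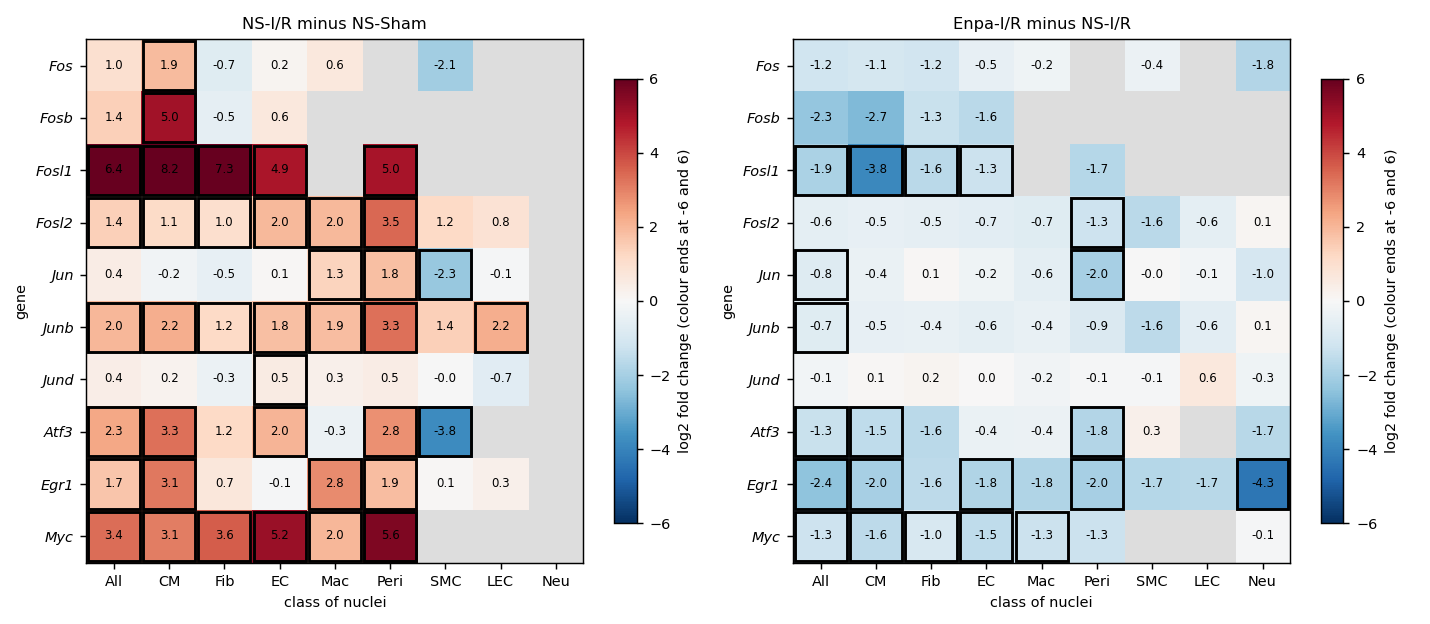
Log2 fold changes of the 10 genes (rows) over all nuclei and in 8 classes of nuclei (columns; CM cardiomyocyte-like, Fib fibroblast-like, EC endothelial-like, Mac macrophage-like, Peri pericyte-like, SMC smooth muscle-like, LEC lymphatic endothelial-like, Neu neutrophil-like), for NS-I/R against NS-Sham on the left and, on the right, enpatoran against saline after I/R; black frames mark adjusted p under 0.05 and grey cells were not tested. Framed cells on the left are positive except Jun and Atf3 in SMC, and framed cells on the right are all negative. Where sham held 1 to 3 UMIs (Fosl1 in CM, Fib and Peri, Myc in Peri), the fitted value is no bound.

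Fosl1 encodes FRA-1, a FOS-family partner of JUN proteins that lacks the strong activation domain of FOS. Its RNA was almost missing from sham hearts, with 16 UMIs over all nuclei of the 3 sham libraries, and was present in every injured heart, with 1625 UMIs in NS-I/R, against 397 with enpatoran. Over all nuclei it stood at 0.126, 0.339 and 0.299 CPM in sham, 29.2, 25.03 and 16.7 after I/R with saline, and 6.14, 7.92 and 5.26 with enpatoran. All NS-I/R libraries lay above all sham and all Enpa-I/R libraries, and the changes were log2 6.43 ± 0.35 (SE, edgeR adjusted p = 2.47e-06) with injury and -1.88 ± 0.24 (SE, edgeR adjusted p = 0.00518) with enpatoran. Fibroblast-like nuclei held 41.7% of its UMIs in NS-I/R, cardiomyocyte-like 24.7% and endothelial-like 14.3%, and in Enpa-I/R these shares were 49.1%, 6.80% and 24.7%. Such shares also depend on how many UMIs a class holds. Pooled over NS-I/R, Fosl1 was at 54.2, 12.7 and 26.7 CPM in these classes.
In cardiomyocyte-like nuclei Fosl1 stood at 0, 0 and 0.123 CPM in sham, 17.9, 12.7 and 7.47 after I/R with saline, and 0.338, 2.06 and 0.498 with enpatoran. Sham held 1 UMI in 3298 nuclei, so the ratio of NS-I/R to sham was 426 with a 95% counting interval of 76.0 to 16854, which covers counting error only. The groups did not overlap, and Fosl1 fell under enpatoran with a log2 change of -3.84 ± 0.58 (SE, edgeR adjusted p = 0.00915). That call was lost without Enpa-I/R replicate 3 (log2 -3.57, edgeR adjusted p = 0.0505).
In fibroblast-like nuclei the values were 0, 0.597 and 0 CPM in sham, 69.02, 58.0 and 33.9 after I/R with saline, and 20.7, 16.2 and 14.4 with enpatoran. The ratio of NS-I/R to sham, which held 3 UMIs, was 182 (62.2 to 887), and Fosl1 was lower in Enpa-I/R without overlap, with a log2 change of -1.63 ± 0.28 (SE, edgeR adjusted p = 0.0132). The enpatoran call was lost without any 1 of NS-I/R replicates 1 or 2 or Enpa-I/R replicates 1, 2 or 3 (log2 -1.802 to -1.42, edgeR adjusted p 0.0504 to 0.0701).
In endothelial-like nuclei it stood at 0.804, 1.05 and 0.468 CPM in sham, 21.9, 31.3 and 24.9 after I/R with saline, and 9.08, 12.4 and 10.9 with enpatoran. It rose by log2 4.88 ± 0.33 (SE, edgeR adjusted p = 1.24e-06) after injury and fell with a log2 change of -1.28 ± 0.22 (SE, edgeR adjusted p = 0.0101) with enpatoran, again with no overlap between groups. The second call was lost without NS-I/R replicate 2 (log2 -1.13, edgeR adjusted p = 0.0504).
In pericyte-like nuclei the ratio to sham (2 UMIs) was 40.6 (10.8 to 342), and the enpatoran difference was log2 -1.72 ± 0.52 (SE, edgeR adjusted p = 0.0594), a value that did not pass. In macrophage-like nuclei, where the low counts kept Fosl1 out of the test, 53 UMIs in NS-I/R stood against 0 in sham, at least 10.6-fold higher, taking 3 counts in the whole group as the floor for sham. Smooth muscle-like nuclei gave 15 UMIs against 1, a ratio with an interval of 2.00 to 547, and lymphatic endothelial-like nuclei 13 against 0, at least 2.70-fold.

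Fos and Fosb encode the FOS-family proteins with activation domains and are known for short pulses of expression. Their RNA differed widely between libraries of a group. Over all nuclei Fos stood at 5.50, 6.67 and 11.8 CPM in sham, 24.9, 14.2 and 7.29 after I/R with saline, and 7.94, 5.83 and 6.45 with enpatoran. Neither comparison was called, with log2 0.96 ± 0.41 (SE, edgeR adjusted p = 0.0742) and -1.19 ± 0.41 (SE, edgeR adjusted p = 0.0691). In cardiomyocyte-like nuclei Fos stood at 2.29, 0.785 and 2.46 CPM in sham, 10.4, 6.95 and 2.15 after I/R with saline, and 4.52, 2.18 and 2.29 with enpatoran. NS-I/R replicate 3 lay within the sham range there, and the call of a rise, log2 1.89 ± 0.59 (SE, edgeR adjusted p = 0.0245), was lost without any 1 of NS-Sham replicate 2 or NS-I/R replicates 1 or 2 (log2 1.404 to 1.84, edgeR adjusted p 0.0553 to 0.096). It was also lost at a 20% mitochondrial limit (1.09, edgeR adjusted p = 0.151) and with doublets kept (1.29, edgeR adjusted p = 0.0882).
Fosb in cardiomyocyte-like nuclei was near 0 in sham and high in 2 of 3 NS-I/R libraries, at 0.229, 0.241 and 0.246 CPM in sham, 14.4, 9.68 and 0.512 after I/R with saline, and 2.36, 0.485 and 0.697 with enpatoran. It rose by log2 5.03 ± 1.10 (SE, edgeR adjusted p = 0.00447), and the enpatoran difference of -2.67 ± 0.86 (SE, edgeR adjusted p = 0.0539) did not pass. The rise was smaller and not called at a 20% mitochondrial limit (1.498, edgeR adjusted p = 0.164) and with doublets kept (2.54, edgeR adjusted p = 0.0606). Fosb UMIs in that class were 134, 124 and 5 in NS-I/R replicates 1 to 3, so that replicate 3 held few of them.
The other classes gave no call for Fos or Fosb after injury, but neither gene was tested in pericyte-like nuclei, nor Fosb in macrophage-like nuclei. Pericyte-like nuclei held 22 Fos UMIs in sham, 105 in NS-I/R and 15 with enpatoran, or 7.21, 39.9 and 5.73 CPM pooled. Single libraries there ran from 2.37 to 10.5 CPM in sham and from 9.52 to 79.0 in NS-I/R. In fibroblast-like nuclei Fos was at 7.39, 12.7 and 21.1 CPM in sham, 12.96, 8.06 and 3.93 after I/R with saline, and 4.505, 2.99 and 3.22 with enpatoran. In endothelial-like nuclei Fosb was at 1.61, 2.31 and 27.6 CPM in sham, 20.8, 15.5 and 6.39 after I/R with saline, and 4.54, 3.38 and 5.66 with enpatoran. NS-Sham replicate 3 had the highest sham value in both. In smooth muscle-like nuclei Fos was at 36.5, 85.4 and 90.1 CPM in sham, 44.2, 9.57 and 2.55 after I/R with saline, and 21.2, 5.96 and 8.33 with enpatoran, a difference of log2 -2.07 ± 0.64 (SE, edgeR adjusted p = 0.0723) after injury. Fosb in pericyte-like nuclei gave 67 UMIs in NS-I/R against 3 in sham, a ratio of 25.9 (8.48 to 129), and 2 in Enpa-I/R, a ratio of 33.3 (8.87 to 281), and 51 of the 67 came from NS-I/R replicate 2.

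Fosl2 encodes FRA-2, the longer-lived relative of FRA-1. It was called higher after injury in each of the 5 larger classes. In endothelial-like nuclei it stood at 18.1, 17.8 and 20.1 CPM in sham, 94.2, 73.3 and 50.4 after I/R with saline, and 49.4, 44.7 and 43.8 with enpatoran. All NS-I/R libraries were above all sham libraries, and the rise was log2 1.96 ± 0.21 (SE, edgeR adjusted p = 2.75e-05). In pericyte-like nuclei the values were 8.86, 15.96 and 3.71 CPM in sham, 191, 122 and 61.4 after I/R with saline, and 58.8, 33.96 and 61.95 with enpatoran, with a rise of 3.46 ± 0.43 (SE, edgeR adjusted p = 2.58e-05). Fosl2 fell under enpatoran with a log2 change of -1.25 ± 0.35 (SE, edgeR adjusted p = 0.0434), with overlap between NS-I/R and Enpa-I/R. This last call was lost without any 1 of NS-Sham replicates 1 or 3, NS-I/R replicates 1 or 2 or Enpa-I/R replicates 1, 2 or 3 (log2 -1.39 to -0.804, edgeR adjusted p 0.0549 to 0.269). It was also lost with only the 6 libraries of the comparison (-1.25, edgeR adjusted p = 0.0798), at a 20% mitochondrial limit (-1.18, edgeR adjusted p = 0.0665) and at a minimum of 1000 genes (-1.24, edgeR adjusted p = 0.0544).
Macrophage-like nuclei had 72.5, 27.6 and 18.5 CPM in sham, 212, 156 and 104 after I/R with saline, and 80.6, 87.5 and 122 with enpatoran for Fosl2, a rise of log2 1.97 ± 0.36 (SE, edgeR adjusted p = 0.000613) without overlap. In fibroblast-like nuclei the rise was 0.996 ± 0.27 (SE, edgeR adjusted p = 0.00996) and in cardiomyocyte-like nuclei 1.15 ± 0.42 (SE, edgeR adjusted p = 0.0466), both with groups that overlapped. The cardiomyocyte call was lost without any 1 of NS-Sham replicates 2 or 3, NS-I/R replicates 1 or 2 or Enpa-I/R replicates 1 or 2 (log2 0.86 to 1.16, edgeR adjusted p 0.0569 to 0.154). It was also lost with only the 6 libraries of the comparison (1.15, edgeR adjusted p = 0.0725), at a 20% mitochondrial limit (0.96, edgeR adjusted p = 0.0913) and with doublets kept (0.71, edgeR adjusted p = 0.245), and a fit within cluster 0, the largest of the class with at least 25 nuclei in every library, gave a value of the other sign, -0.41 (edgeR adjusted p = 0.698).

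Junb encodes a JUN-family protein with weaker activation than JUN. Over all nuclei it stood at 12.96, 11.3 and 18.7 CPM in sham, 75.0, 46.05 and 49.1 after I/R with saline, and 34.1, 34.7 and 33.3 with enpatoran. Every NS-I/R library lay above every sham library in the 5 larger classes and in lymphatic endothelial-like nuclei, and the rise ranged from log2 1.19 ± 0.23 (SE, edgeR adjusted p = 0.00153) in fibroblast-like to 3.301 ± 0.35 (SE, edgeR adjusted p = 6.23e-06) in pericyte-like nuclei. The fibroblast-like call was lost within the largest cluster of the class, cluster 12 (0.57, edgeR adjusted p = 0.0748). In cardiomyocyte-like nuclei the values were 4.24, 3.14 and 4.06 CPM in sham, 21.6, 14.5 and 14.3 after I/R with saline, and 12.6, 13.5 and 9.36 with enpatoran, a rise of 2.16 ± 0.24 (SE, edgeR adjusted p = 0.000111). Under enpatoran Junb was called lower over all nuclei, with a log2 change of -0.73 ± 0.21 (SE, edgeR adjusted p = 0.0415), and in no single class, where the differences ran from -1.55 in smooth muscle-like to 0.11 in neutrophil-like nuclei. The all-nuclei call was lost without any 1 of NS-Sham replicate 1, NS-I/R replicates 1 or 2 or Enpa-I/R replicates 1, 2 or 3 (log2 -0.88 to -0.49, edgeR adjusted p 0.0557 to 0.143). It was also lost with only the 6 libraries of the comparison (-0.75, edgeR adjusted p = 0.063) and at a minimum of 1000 genes (-0.71, edgeR adjusted p = 0.0531).

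Jun encodes the founding AP-1 protein, and its RNA moved in opposite directions in the mural cells of vessels. In smooth muscle-like nuclei Jun stood at 106, 110.2 and 158 CPM in sham, 50.5, 13.4 and 17.8 after I/R with saline, and 27.7, 17.9 and 27.8 with enpatoran. All injured libraries lay below all sham libraries, and the fall was log2 -2.28 ± 0.41 (SE, edgeR adjusted p = 0.00555). In pericyte-like nuclei it stood at 27.9, 11.97 and 24.1 CPM in sham, 55.97, 120.4 and 31.2 after I/R with saline, and 13.4, 14.2 and 23.4 with enpatoran, rose by 1.79 ± 0.43 (SE, edgeR adjusted p = 0.00695) and fell under enpatoran with a log2 change of -2.01 ± 0.44 (SE, edgeR adjusted p = 0.0182), without overlap in either comparison. The pericyte rise was lost without any 1 of NS-Sham replicate 2 or NS-I/R replicate 2 (log2 1.13 to 1.38, edgeR adjusted p 0.0559 to 0.0616), and the fall without any 1 of NS-I/R replicate 2 or Enpa-I/R replicates 1, 2 or 3 (log2 -2.305 to -1.35, edgeR adjusted p 0.0611 to 0.102) and with only the 6 libraries of the comparison (-2.003, edgeR adjusted p = 0.0509). The difference between the 2 classes was not tested.
In macrophage-like nuclei Jun rose by log2 1.34 ± 0.35 (SE, edgeR adjusted p = 0.00736), a call lost without NS-Sham replicate 2 (log2 1.19, edgeR adjusted p = 0.0538) and within the largest cluster of the class, cluster 15 (0.83, edgeR adjusted p = 0.0824). In cardiomyocyte-like, fibroblast-like and endothelial-like nuclei the injury differences of Jun were -0.21 ± 0.24, -0.50 ± 0.21 and 0.07 ± 0.21 (SE), and none was called. Over all nuclei Jun was lower under enpatoran, at 41.3, 30.9 and 49.5 CPM in sham, 72.4, 38.9 and 52.3 after I/R with saline, and 30.1, 35.3 and 31.5 with enpatoran. The change was log2 -0.75 ± 0.22 (SE, edgeR adjusted p = 0.046), and the call was lost without any 1 of NS-Sham replicates 1 or 3, NS-I/R replicate 1 or Enpa-I/R replicates 1, 2 or 3 (log2 -0.81 to -0.51, edgeR adjusted p 0.0578 to 0.161). It was also lost with only the 6 libraries of the comparison (-0.77, edgeR adjusted p = 0.0734), at a 20% mitochondrial limit (-0.68, edgeR adjusted p = 0.0736), at a minimum of 1000 genes (-0.66, edgeR adjusted p = 0.0674) and with doublets kept (-0.76, edgeR adjusted p = 0.0525), and without 1 unnamed cluster described further on (-0.46, adjusted p = 0.0978).
Jund encodes the JUN protein found in most resting cells. In cardiomyocyte-like nuclei it stood at 15.8, 8.81 and 19.1 CPM in sham, 13.9, 14.8 and 20.6 after I/R with saline, and 16.5, 18.4 and 16.4 with enpatoran, with all groups overlapping. It was called in 1 class only, endothelial-like nuclei, by log2 0.504 ± 0.18 (SE, edgeR adjusted p = 0.0487), and that call was lost without any 1 of NS-Sham replicates 2 or 3, NS-I/R replicate 1 or Enpa-I/R replicates 1, 2 or 3 (log2 0.25 to 0.5002, edgeR adjusted p 0.0668 to 0.258). It was also lost with DESeq2 size factors (0.5002, edgeR adjusted p = 0.0521), with the DESeq2 Wald test (0.499, adjusted p = 0.0575), with only the 6 libraries of the comparison (0.5002, edgeR adjusted p = 0.0919), at a minimum of 1000 genes (0.63, edgeR adjusted p = 0.058), at Leiden resolution 2 (0.49, edgeR adjusted p = 0.0577) and within the largest cluster of the class, cluster 5 (0.38, edgeR adjusted p = 0.513).

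Atf3, the stress-induced bZIP gene, had most of its UMIs in 1 class after injury: cardiomyocyte-like nuclei held 68.2% of its UMIs in NS-I/R, against 70.6% with enpatoran. These nuclei also held more RNA, with a median of 8458 UMIs in NS-I/R against 1690.5 in endothelial-like nuclei. Pooled over NS-I/R, Atf3 was at 60.7 CPM in cardiomyocyte-like, 40.3 in neutrophil-like and 312 in the unnamed nuclei described further on. In cardiomyocyte-like nuclei Atf3 stood at 10.4, 2.35 and 6.64 CPM in sham, 59.4, 40.1 and 87.1 after I/R with saline, and 22.9, 19.4 and 22.01 with enpatoran. The 3 groups did not overlap, with a rise of log2 3.32 ± 0.45 (SE, edgeR adjusted p = 0.000329) and a fall under enpatoran with a log2 change of -1.53 ± 0.41 (SE, edgeR adjusted p = 0.0306). The rise was smaller and not called at a 20% mitochondrial limit (1.49, edgeR adjusted p = 0.0594) and with doublets kept (1.19, edgeR adjusted p = 0.231). The fall was lost without any 1 of NS-Sham replicate 3, NS-I/R replicates 1 or 2 or Enpa-I/R replicates 1, 2 or 3 (log2 -1.77 to -1.46, edgeR adjusted p 0.0517 to 0.0923) and at a 20% mitochondrial limit (-0.41, edgeR adjusted p = 0.665) and with doublets kept (-0.44, edgeR adjusted p = 0.716). Endothelial-like nuclei had 8.04, 3.57 and 4.68 CPM in sham, 25.8, 21.9 and 15.8 after I/R with saline, and 16.1, 13.9 and 18.9 with enpatoran. This was a rise of 2.02 ± 0.30 (SE, edgeR adjusted p = 0.000324), with Enpa-I/R overlapping NS-I/R.
In smooth muscle-like nuclei Atf3 went the other way, at 32.5, 76.4 and 171 CPM in sham, 6.31, 3.83 and 10.2 after I/R with saline, and 13.04, 2.98 and 5.55 with enpatoran. All injured libraries lay below all sham libraries, and the fall was log2 -3.78 ± 0.65 (SE, edgeR adjusted p = 0.00408), from 95 UMIs in sham to 8 in NS-I/R. Pericyte-like nuclei had 1.27, 4.65 and 1.86 CPM in sham, 26.9, 25.2 and 13.5 after I/R with saline, and 8.25, 1.42 and 8.18 with enpatoran. This was a rise of 2.76 ± 0.55 (SE, edgeR adjusted p = 0.00176) and a fall under enpatoran with a log2 change of -1.78 ± 0.49 (SE, edgeR adjusted p = 0.0437), the latter lost without any 1 of NS-Sham replicates 1, 2 or 3, NS-I/R replicates 1 or 2 or Enpa-I/R replicates 1, 2 or 3 (log2 -2.07 to -1.38, edgeR adjusted p 0.0543 to 0.191) and with only the 6 libraries of the comparison (-1.77, edgeR adjusted p = 0.0752). Over all nuclei Atf3 fell under enpatoran with a log2 change of -1.34 ± 0.29 (SE, edgeR adjusted p = 0.0191), a call lost without any 1 of NS-I/R replicate 1 or Enpa-I/R replicates 1, 2 or 3 (log2 -1.43 to -1.21, edgeR adjusted p 0.0624 to 0.071). In fibroblast-like nuclei the differences were 1.19 ± 0.48 (SE, edgeR adjusted p = 0.0612) and -1.603 ± 0.48 (SE, edgeR adjusted p = 0.0556), with all Enpa-I/R libraries below all NS-I/R libraries.

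Egr1, the zinc finger factor gene, varied widely between the NS-I/R libraries. Over all nuclei it stood at 18.9, 23.3 and 46.3 CPM in sham, 165, 84.4 and 28.4 after I/R with saline, and 19.03, 16.8 and 16.2 with enpatoran. NS-I/R replicate 3 lay within the sham range, and replicates 1 and 2 lay above it. Egr1 was called higher after injury, by log2 1.66 ± 0.52 (SE, edgeR adjusted p = 0.0246), and lower with enpatoran, with a log2 change of -2.42 ± 0.54 (SE, edgeR adjusted p = 0.0209), where the groups did not overlap. The injury call was lost without any 1 of NS-Sham replicates 1 or 2 or NS-I/R replicate 1 (log2 0.96 to 1.52, edgeR adjusted p 0.0865 to 0.113) and with only the 6 libraries of the comparison (1.66, edgeR adjusted p = 0.0526). The enpatoran call was lost without any 1 of NS-I/R replicates 1 or 2 or Enpa-I/R replicates 1, 2 or 3 (log2 -2.501 to -1.71, edgeR adjusted p 0.0516 to 0.08) and with only the 6 libraries of the comparison (-2.44, edgeR adjusted p = 0.0542).
In cardiomyocyte-like nuclei Egr1 stood at 1.72, 0.724 and 3.57 CPM in sham, 29.4, 12.7 and 7.47 after I/R with saline, and 4.19, 4.36 and 3.78 with enpatoran. NS-I/R lay above both other groups without overlap, a rise of 3.14 ± 0.58 (SE, edgeR adjusted p = 0.00184) and a fall under enpatoran with a log2 change of -1.998 ± 0.53 (SE, edgeR adjusted p = 0.0308). The fall was lost without any 1 of NS-I/R replicates 1 or 2 or Enpa-I/R replicates 1, 2 or 3 (log2 -2.17 to -1.3002, edgeR adjusted p 0.0693 to 0.125) and with only the 6 libraries of the comparison (-1.999, edgeR adjusted p = 0.0548).
In endothelial-like nuclei Egr1 stood at 36.99, 54.6 and 83.8 CPM in sham, 82.9, 58.7 and 23.9 after I/R with saline, and 17.7, 10.9 and 18.5 with enpatoran. The injury difference was log2 -0.07 ± 0.36 (SE, edgeR adjusted p = 0.894), not called, while Enpa-I/R lay below both other groups and the fall was -1.798 ± 0.41 (SE, edgeR adjusted p = 0.0257), lost without any 1 of NS-I/R replicates 1 or 2 or Enpa-I/R replicates 1, 2 or 3 (log2 -1.91 to -1.39, edgeR adjusted p 0.0775 to 0.103) and within the largest cluster of the class, cluster 5 (-1.12, edgeR adjusted p = 0.444). Fibroblast-like nuclei had 63.7, 57.7 and 147 CPM in sham, 246, 132 and 46.1 after I/R with saline, and 56.98, 46.7 and 38.7 with enpatoran, with no call in either comparison.
In macrophage-like nuclei Egr1 stood at 1.65, 7.90 and 15.9 CPM in sham, 95.96, 54.5 and 16.4 after I/R with saline, and 14.02, 10.1 and 25.2 with enpatoran. It rose by log2 2.84 ± 0.66 (SE, edgeR adjusted p = 0.00372). Its rise in pericyte-like nuclei was 1.86 ± 0.49 (SE, edgeR adjusted p = 0.0118), lost without any 1 of NS-Sham replicates 1 or 2 or NS-I/R replicate 2 (log2 1.36 to 1.59, edgeR adjusted p 0.0533 to 0.0779) and with DESeq2 (adjusted p = 0.136), and its fall there under enpatoran was -2.01 ± 0.49 (SE, edgeR adjusted p = 0.0278), lost without any 1 of NS-I/R replicates 1 or 2 or Enpa-I/R replicates 1, 2 or 3 (log2 -2.31 to -1.54, edgeR adjusted p 0.0703 to 0.135) and with DESeq2 (adjusted p = 0.132). Neutrophil-like nuclei had 294, 478 and 59.8 CPM after I/R with saline, and 13.8, 17.1 and 0 with enpatoran, a fall with a log2 change of -4.32 ± 0.85 (SE, edgeR adjusted p = 0.0275), which was lost without any 1 of Enpa-I/R replicates 1, 2 or 3 (log2 -4.81 to -4.09, edgeR adjusted p 0.131 to 0.155). The enpatoran values there rest on 6 UMIs in 329 nuclei, near the floor, against 485 UMIs in 1377 nuclei of NS-I/R.

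Myc, a driver of growth and ribosome production, separated the groups in most classes. In cardiomyocyte-like nuclei it stood at 2.63, 1.81 and 2.46 CPM in sham, 20.8, 19.7 and 15.97 after I/R with saline, and 5.94, 5.57 and 7.37 with enpatoran. In fibroblast-like nuclei the values were 4.52, 4.38 and 2.58 CPM in sham, 61.4, 47.9 and 42.4 after I/R with saline, and 25.5, 29.6 and 22.9 with enpatoran. Endothelial-like nuclei had 0.804, 0.420 and 0.936 CPM in sham, 31.8, 25.5 and 17.8 after I/R with saline, and 10.3, 8.27 and 6.79 with enpatoran. In these classes and in macrophage-like nuclei NS-I/R lay above both other groups with no overlap, and Enpa-I/R lay between sham and NS-I/R. Myc rose in cardiomyocyte-like nuclei by log2 3.06 ± 0.22 (SE, edgeR adjusted p = 1.2e-05) and in fibroblast-like nuclei by 3.65 ± 0.24 (SE, edgeR adjusted p = 9.47e-07). For endothelial-like nuclei the rise was 5.19 ± 0.40 (SE, edgeR adjusted p = 2.99e-06), and for macrophage-like nuclei 2.003 ± 0.35 (SE, edgeR adjusted p = 0.000389).
The fall of Myc under enpatoran was log2 -1.58 ± 0.20 (SE, edgeR adjusted p = 0.00561) in cardiomyocyte-like nuclei, a call that held without each library in turn but not at a 20% mitochondrial limit (-1.07, edgeR adjusted p = 0.0536) and with doublets kept (-1.09, edgeR adjusted p = 0.0749). It was -0.96 ± 0.18 (SE, edgeR adjusted p = 0.0162) in fibroblast-like nuclei, lost without any 1 of NS-I/R replicates 1 or 2 or Enpa-I/R replicates 1, 2 or 3 (log2 -1.05 to -0.799, edgeR adjusted p 0.0546 to 0.0809). That call was also lost with only the 6 libraries of the comparison (-0.96, edgeR adjusted p = 0.0508) and within the largest cluster of the class, cluster 12 (-0.82, edgeR adjusted p = 0.201). The endothelial-like value was -1.54 ± 0.26 (SE, edgeR adjusted p = 0.01), lost without Enpa-I/R replicate 3 (log2 -1.401, edgeR adjusted p = 0.0535). The macrophage-like value was -1.29 ± 0.29 (SE, edgeR adjusted p = 0.0157), lost without any 1 of NS-I/R replicate 1 or Enpa-I/R replicates 2 or 3 (log2 -1.19 to -1.15, edgeR adjusted p 0.0689 to 0.0844). That call was also lost at a minimum of 1000 genes (-1.14, edgeR adjusted p = 0.105) and within the largest cluster of the class, cluster 15 (-1.03, edgeR adjusted p = 0.151). In pericyte-like nuclei 64 UMIs in NS-I/R stood against 1 in sham, a ratio of 74.2 (12.8 to 2975), and in smooth muscle-like nuclei 22 against 2, a ratio of 9.53 (2.34 to 83.6). Over all nuclei Myc rose by 3.37 ± 0.17 (SE, edgeR adjusted p = 1.62e-06) and fell under enpatoran with a log2 change of -1.26 ± 0.15 (SE, edgeR adjusted p = 0.00427).

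**Figure D2:**
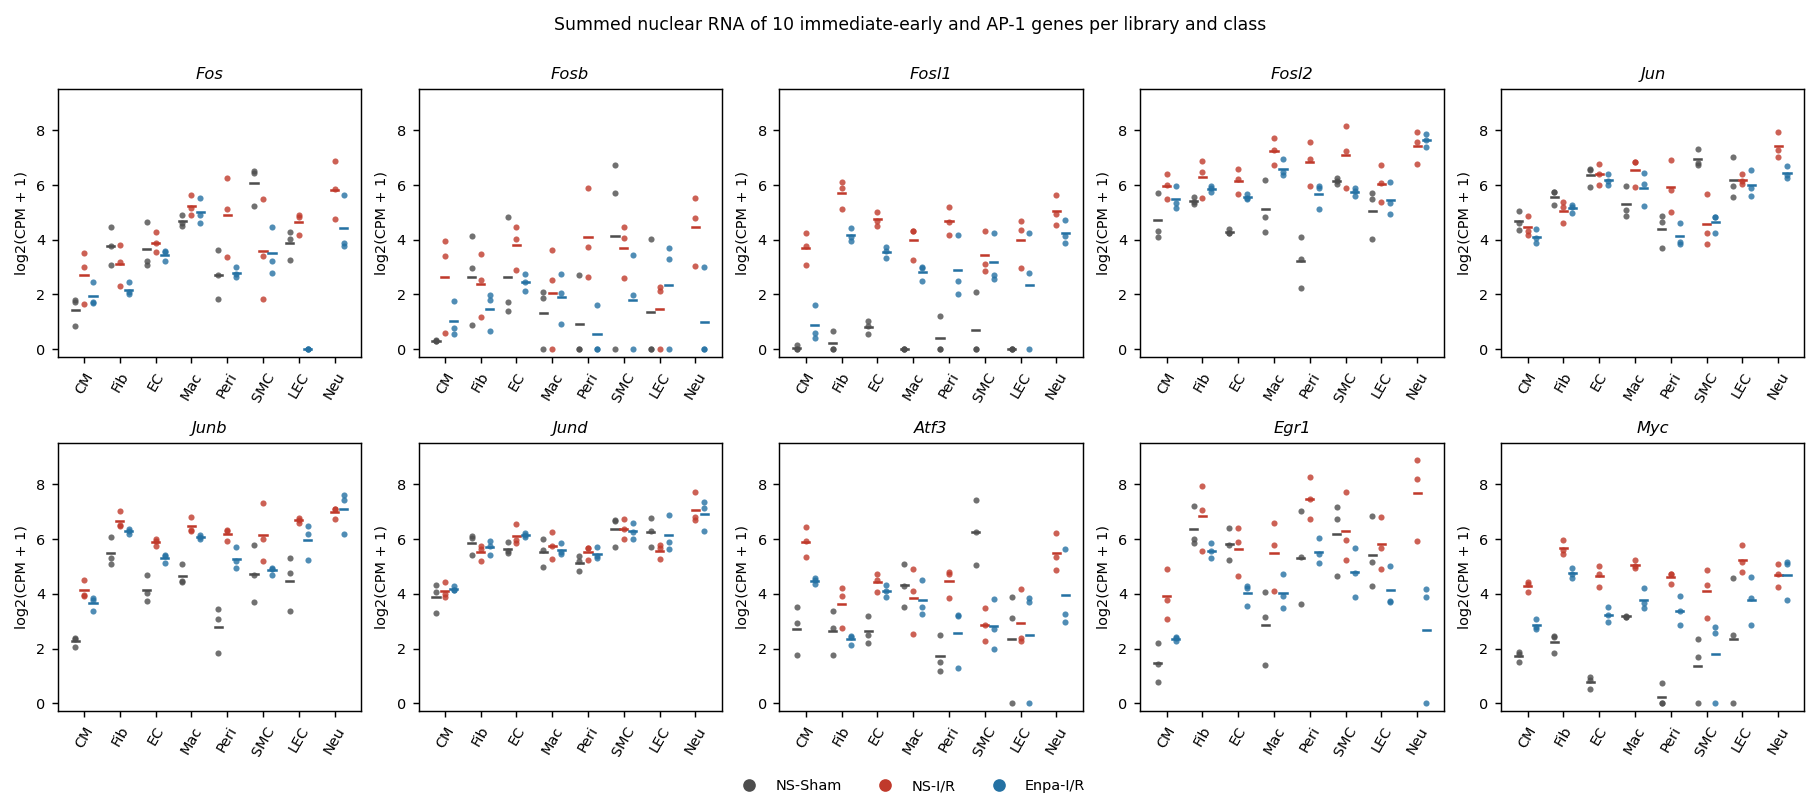
Level of each gene as log2(CPM + 1) in each library (points; bars are means over 3 libraries) for 8 classes of nuclei (CM to Neu as cardiomyocyte-like, fibroblast-like, endothelial-like, macrophage-like, pericyte-like, smooth muscle-like, lymphatic endothelial-like and neutrophil-like), in grey for NS-Sham, red for NS-I/R and blue for Enpa-I/R; sham hearts held too few neutrophil-like nuclei to plot. Fosl1 and Myc separate the groups in CM, Fib and EC, while Jund overlaps in nearly every class and Egr1, Fos and Fosb scatter between NS-I/R libraries.

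Whether a change differed between classes was tested as an interaction, with the library as a block, for fibroblast-like, endothelial-like and macrophage-like against cardiomyocyte-like nuclei. After injury 5, 5 and 2 of the 10 members differed, where 22.2%, 15.4% and 17.4% of genes did. The macrophage-like count was near the share of all genes. Fos, Fosb, Atf3 and Egr1 had lower injury changes in fibroblast-like and endothelial-like than in cardiomyocyte-like nuclei, Junb in fibroblast-like and Atf3 in macrophage-like nuclei. The interaction was not refitted at a 20% mitochondrial limit or with doublets kept. In both settings the cardiomyocyte-like rises of Fos, Fosb and Atf3 were smaller and not called, while that of Egr1 stayed called. Of the lower changes, the endothelial-like Fos, Fosb and Atf3 calls and the fibroblast-like Junb call were each lost without some single library. The lost values were log2 -1.42 to -1.23 (endothelial-like Fos, without any 1 of NS-Sham replicates 2 or 3 or NS-I/R replicates 1 or 2, edgeR adjusted p 0.0573 to 0.151), -1.89 (endothelial-like Fosb, without NS-Sham replicate 3, edgeR adjusted p = 0.312), -1.51 to -0.89 (endothelial-like Atf3, without any 1 of NS-Sham replicates 1, 2 or 3, NS-I/R replicate 3 or Enpa-I/R replicates 1, 2 or 3, edgeR adjusted p 0.051 to 0.226) and -0.57 (fibroblast-like Junb, without NS-Sham replicate 3, edgeR adjusted p = 0.0896). Myc rose more in endothelial-like nuclei, by log2 2.17 ± 0.47 (SE, edgeR adjusted p = 0.00128), and the injury change of Jun was higher in macrophage-like nuclei, by 1.56 ± 0.36 (SE, edgeR adjusted p = 0.00233). Under enpatoran 1 of the 10 members differed in fibroblast-like and 1 in endothelial-like nuclei (7.29% and 5.15% of genes). These counts were near the shares of all genes. Fosl1 fell more in cardiomyocyte-like than in fibroblast-like nuclei, a log2 difference of 2.21 ± 0.45 (SE, edgeR adjusted p = 0.00301), and than in endothelial-like nuclei, by 2.49 ± 0.48 (SE, edgeR adjusted p = 0.00269). The first was lost without Enpa-I/R replicate 1 (log2 1.504, edgeR adjusted p = 0.0866). The macrophage-like fit called Fosl1 alone, which was too low for a test within that class, so its difference is listed only among the flagged results further on.

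Classes were made of clusters whose shares differed between groups, and part of the members' RNA came from clusters seen mostly after injury. Cluster 4 of the cardiomyocyte-like nuclei, with Xirp2 and Ank3 among its leading genes, made up 57.3%, 58.7% and 38.4% of the class in NS-I/R, 20.9%, 19.7% and 19.5% with enpatoran. In sham it made up 0.0606%, and cluster 3 held 72.3% there. Within cluster 4 Fosl1 was at 28.5, 21.02 and 17.6 CPM with saline and 1.497, 10.5 and 1.34 with enpatoran, and the groups did not overlap. The enpatoran values in cluster 4 rest on only 5, 16 and 3 UMIs, against 163, 160 and 68 with saline. Myc was at 29.9, 29.6 and 34.3 CPM with saline and 14.7, 21.7 and 16.1 with enpatoran within it, again without overlap, while Atf3 at 86.3, 61.1 and 212 CPM with saline and 83.8, 89.9 and 31.4 with enpatoran and Egr1 at 35.97, 14.2 and 9.55 CPM with saline and 9.88, 14.4 and 8.06 with enpatoran overlapped. In the rest of the cardiomyocyte-like nuclei pooled Fosl1 was 0.0299 CPM in sham, 0.764 in NS-I/R, against 0.112 with enpatoran. Atf3 there was 5.50, 9.65 and 8.73 CPM, Myc 2.18, 5.07 and 3.37, and Egr1 1.67, 10.97 and 2.36, so that of these 4 genes Atf3 was the nearest between NS-I/R and Enpa-I/R once cluster 4 was set aside.
Cluster 13 of the fibroblast-like nuclei, led by Tnc and Adam12, made up 44.2% to 48.2% of the class in NS-I/R, 32.6% to 35.1% in Enpa-I/R and 0.140% to 0.463% in sham. Fosl1 in it was at 134, 106 and 61.99 CPM with saline and 44.2, 35.8 and 27.3 with enpatoran, and Myc at 100.1, 78.97 and 69.5 CPM with saline and 44.8, 56.2 and 38.2 with enpatoran, neither with overlap. In the rest of the fibroblast-like nuclei pooled Fosl1 was 0.297, 12.6 and 3.54 CPM in the sham, saline and enpatoran groups, and Myc 3.67, 22.2 and 11.4.
Cluster 9 of the endothelial-like nuclei made up 25.8% to 28.0% of the class in NS-I/R, against 9.67% to 14.1% with enpatoran. Fosl1 in it overlapped between the groups, at 60.7, 94.5 and 83.1 CPM with saline and 56.4, 79.7 and 77.9 with enpatoran, and so did Myc, at 62.1, 46.02 and 25.8 CPM with saline and 40.3, 21.3 and 24.6 with enpatoran. In the rest of the class pooled Fosl1 was 0.723, 8.20 and 3.35 CPM in the sham, saline and enpatoran groups. Cluster 20 of the macrophage-like nuclei held 47.1% to 58.96% of the class in NS-I/R, 36.3% to 38.8% in Enpa-I/R and 6.04% to 8.00% in sham. Myc in it was at 38.1, 30.2 and 36.4 CPM with saline and 25.3, 5.99 and 5.82 with enpatoran, without overlap. These rest on 21, 16 and 29 UMIs with saline and on 11, 3 and 2 with enpatoran, near the floor.
These within-cluster values are descriptions with no test. With a 20% mitochondrial limit, and with doublets kept, the Xirp2-led cluster lost its name and left the class. The cardiomyocyte-like injury calls of Fos, Fosb, Fosl2 and Atf3 and the enpatoran calls of Atf3 and Myc were then lost, with the values given above. Fits were also made within 1 cluster of each of 4 classes, the largest among those with at least 25 nuclei in every library. In fibroblast-like, endothelial-like and macrophage-like nuclei this was the largest cluster of the class (clusters 12, 5 and 15). In cardiomyocyte-like nuclei it was cluster 0, with 1504 nuclei, since clusters 3, 4 and 1, with 3721, 2158 and 1786, had fewer than 25 in some library. In cardiomyocyte-like, fibroblast-like, endothelial-like and macrophage-like nuclei these fits called 0, 2, 2 and 3 members after injury. Under enpatoran they called 0 in each.

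**Figure D3:**
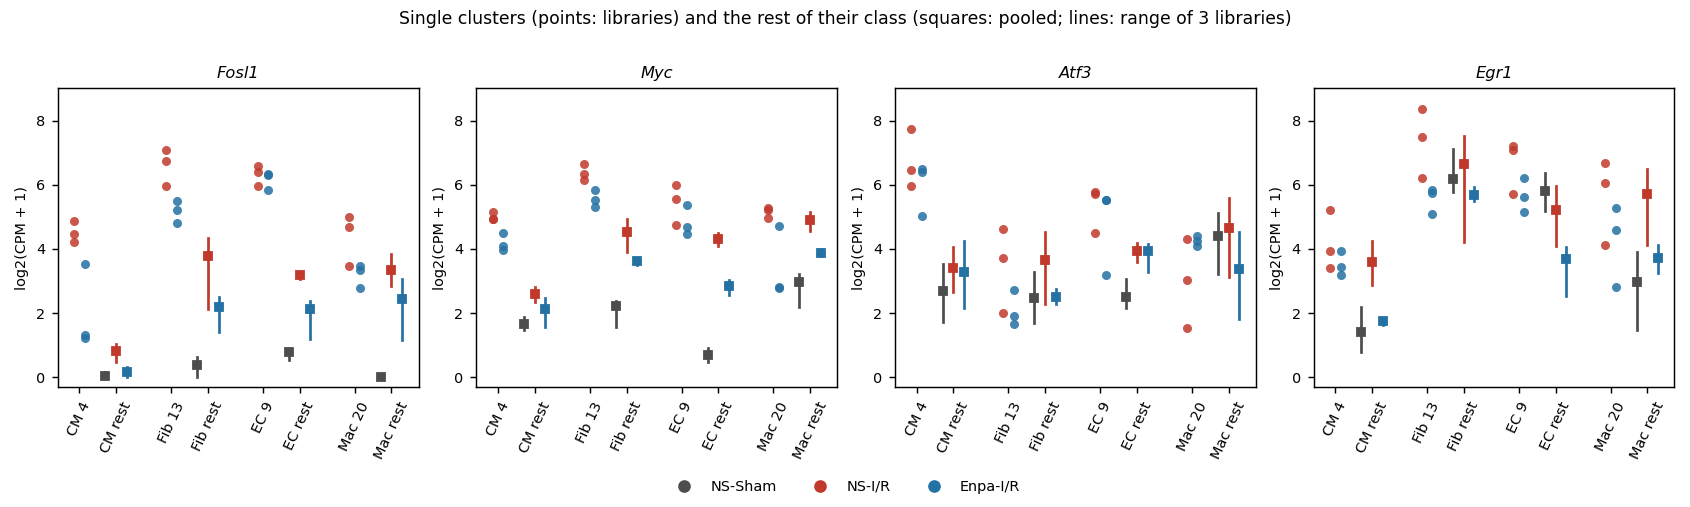
Fosl1, Myc, Atf3 and Egr1 as log2(CPM + 1) in 4 clusters that were common after injury (CM 4, Fib 13, EC 9, Mac 20; 1 point per library, red NS-I/R, blue Enpa-I/R) and in the rest of each class (squares are pooled values, lines the range over 3 libraries, grey NS-Sham). Fosl1 and Myc in CM 4 and Fib 13 are lower in every Enpa-I/R library than in every NS-I/R library, and both genes overlap in EC 9. Fosl1 in CM 4 rests on 5, 16 and 3 UMIs in Enpa-I/R.

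One cluster of 397 nuclei could not be named. It was led by Hspa1a and Hspa1b, heat-shock chaperone genes, and by Dnah12, a ciliary motor gene, and Egr1 was among its 10 leading genes, although the members took no part in the clustering. It held 249, 109 and 28 nuclei in NS-I/R replicates 1 to 3, 0 in sham and 3, 5 and 3 in Enpa-I/R. In NS-I/R replicates 1 to 3 it held 41.4%, 23.1% and 7.55% of all Egr1 UMIs, and 33.7%, 10.8% and 14.7% of Jun UMIs. For Fosb the shares were 29.0%, 8.89% and 15.3%. Its shares were low for Fosl1, at 3.56%, 1.46% and 1.29%, and for Myc, at 2.94%, 0.761% and 0%. Without it, an alternative added after the data were seen, Egr1 over all nuclei stayed called in both comparisons, at log2 1.17 (edgeR adjusted p = 0.0482) and -1.94 (edgeR adjusted p = 0.0221), and the enpatoran count over all nuclei was 5 in place of 6.
The list of 5 heat-shock genes moved with the same groups. Summed over all nuclei it stood at 101.9, 52.2 and 56.9 CPM in sham hearts. With saline and I/R it was at 800.5, 377 and 383, and with enpatoran at 93.2, 130.1 and 79.7. Without the unnamed cluster the NS-I/R values were 414, 269 and 281. In cardiomyocyte-like nuclei it was at 131, 211 and 264 CPM in NS-I/R, above every library of the other groups. In neutrophil-like nuclei it was at 2498, 1389 and 1180, against 109, 169 and 77.6 in the neutrophil-like nuclei of Enpa-I/R. The part of heat-shock expression, or of handling, in the members' values was not tested.
Marker RNA of other cell types was measured in the cardiomyocyte-like, endothelial-like and fibroblast-like nuclei. The 8 neutrophil markers summed to 6.18 to 12.2 CPM in sham, 35.6 to 110.4 in NS-I/R, against 36.8 to 56.5 with enpatoran in cardiomyocyte-like nuclei. In endothelial-like nuclei they summed to 4.69 to 7.68, 111 to 256 and 47.3 to 65.4, and in fibroblast-like nuclei to 24.1 to 24.7, 72.0 to 187 and 40.5 to 49.2. The marker Retnlg was at 0 in sham cardiomyocyte-like, S100a8 in sham endothelial-like and Trem1 in sham fibroblast-like nuclei. In neutrophil-like nuclei themselves Fosl1 stood at 48.7, 29.5 and 22.3 CPM after I/R with saline, and 13.8, 25.6 and 16.5 with enpatoran, and Myc at 25.2, 33.5 and 17.9 CPM after I/R with saline, and 34.6, 12.8 and 32.9 with enpatoran. The 8 cardiomyocyte markers, summing to 36868 to 61736 CPM in cardiomyocyte-like nuclei, gave 1712 to 4773 CPM in fibroblast-like nuclei. The part of such RNA in the members' values was not tested.

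**Figure D4:**
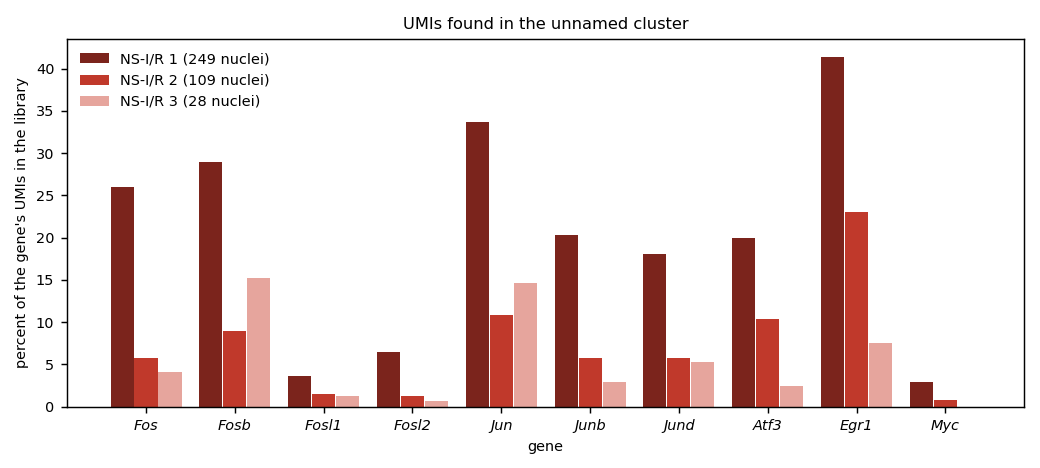
Percent of each gene's UMIs in a library that lay in the unnamed cluster (bars, 1 per NS-I/R replicate, with its number of nuclei in the cluster). Egr1 reached 41.4% and Jun 33.7% in replicate 1, while Fosl1 and Myc stayed at or under 3.56% in each replicate.

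Textbook targets, partners and regulators of the members were counted from gene lists, in cardiomyocyte-like, fibroblast-like, endothelial-like, macrophage-like and pericyte-like nuclei in that order. The lists were chosen with earlier results of these data known, so the counts are descriptions. Whether the members act on these genes was not tested. Of all genes tested, 23.6%, 23.2%, 17.9%, 17.9% and 12% were called higher after injury in the same order of classes. Under enpatoran 11.1%, 5.82%, 3.62%, 3.43% and 2.89% were called lower. Of 10 AP-1 targets, 7 of 8, 7 of 9, 8 of 8, 7 of 8 and 5 of 6 tested were higher after injury, with list medians of log2 3.10 to 4.48 against -0.01 to 0.03 for all genes. Plaur, the urokinase receptor gene, rose by 4.77 in macrophage-like nuclei, by 3.75 in fibroblast-like and by 3.55 in endothelial-like ones. Cd44, a hyaluronan receptor gene, rose by 2.59 in cardiomyocyte-like nuclei. Under enpatoran 3, 2, 2, 1 and 2 of them were lower. Plaur fell with a log2 change of -1.22 (edgeR adjusted p = 0.0129) in fibroblast-like and -1.68 (edgeR adjusted p = 0.00207) in macrophage-like nuclei, and Cd44 with a log2 change of -0.93 (edgeR adjusted p = 0.0279) in cardiomyocyte-like nuclei.
Of 10 MYC targets, 8, 10, 7 and 7 of 10 and 7 of 9 were higher after injury (medians 1.07 to 1.97). Under enpatoran 6, 6, 5, 1 and 3 were lower (medians -0.76 to -0.32). Odc1, the first enzyme of polyamine synthesis, rose by 2.603 in fibroblast-like nuclei and fell under enpatoran with a log2 change of -1.63 (edgeR adjusted p = 0.0128). Nop56, a nucleolar protein gene, rose by 1.502 in cardiomyocyte-like nuclei and fell under enpatoran with a log2 change of -1.07 (edgeR adjusted p = 0.0152).
Of 19 other immediate-early genes, 11 of 15, 5 of 16, 5 of 16, 4 of 13 and 5 of 12 were higher after injury, and 2 of 16 were lower in endothelial-like nuclei. Ier3, a survival gene, rose by 3.37 in cardiomyocyte-like and 3.84 in macrophage-like nuclei. Nr4a1, an orphan nuclear receptor gene, rose by 3.43 in pericyte-like nuclei. Under enpatoran 5, 3, 1, 2 and 1 were lower, among them Ier3 in cardiomyocyte-like nuclei, with a log2 change of -1.28 (edgeR adjusted p = 0.00913), and Nr4a1 in pericyte-like nuclei, with a log2 change of -2.002 (edgeR adjusted p = 0.0168).
Of 12 bZIP partners, 3 of 9, 1 of 10, 5 of 12, 3 of 12 and 3 of 7 were higher after injury, and 1, 1, 2, 4 and 1 lower. The fibroblast-like share was under that of all genes called higher. Atf4, the main factor of the integrated stress response, rose in each of the 5 classes, by 1.16 in endothelial-like to 1.97 in cardiomyocyte-like nuclei, and was lower under enpatoran in 4 of them, with a log2 change of -1.01 (edgeR adjusted p = 0.0115) in cardiomyocyte-like nuclei. Batf3, a factor of dendritic cells, fell with a log2 change of -2.795 in macrophage-like nuclei.
Of 14 upstream kinases and factors, 3 of 14, 2 of 14, 0 of 14, 2 of 11 and 1 of 12 were higher after injury. These shares were near or under those of all genes called higher. In the 5 classes 1, 1, 2, 2 and 2 were lower. Map2k1, which encodes the kinase MEK1, rose by 1.26 in cardiomyocyte-like and 1.55 in fibroblast-like nuclei, and fell under enpatoran with a log2 change of -0.93 (edgeR adjusted p = 0.00817) and -0.69 (edgeR adjusted p = 0.0129). Creb1, the CREB factor gene, was lower after injury in 4 of the 5 classes, with a log2 change of -0.4996 in cardiomyocyte-like nuclei.
Of 9 MAP kinase phosphatases, 1 of 6, 3 of 8, 2 of 7, 1 of 5 and 1 of 4 were higher after injury, and 1 was lower in cardiomyocyte-like nuclei. The cardiomyocyte-like and macrophage-like shares were near or under those of all genes called higher. Dusp5, an ERK phosphatase, rose by 2.69 in cardiomyocyte-like, 5.69 in fibroblast-like and 3.51 in endothelial-like nuclei, and fell under enpatoran with a log2 change of -1.26 (edgeR adjusted p = 0.0109) in endothelial-like nuclei. Dusp1, which acts on JNK and p38 as well, rose by 1.699 in pericyte-like nuclei and fell with a log2 change of -1.58 in smooth muscle-like nuclei.
Of the 7 genes of the MYC network, 1, 3, 1, 1 and 1 were lower after injury, and 1, 0, 1, 1 and 1 higher. Except for the fibroblast-like share called lower, these were near or under the shares of all genes. Mxi1, a MYC antagonist gene, fell with a log2 change of -1.54 in cardiomyocyte-like, -1.67 in fibroblast-like and -1.51 in endothelial-like nuclei. Mxd1, another antagonist gene, rose by 1.17 in macrophage-like nuclei and fell under enpatoran there with a log2 change of -1.301 (edgeR adjusted p = 0.0181). The 5 heat-shock genes were higher after injury in 5 of 5, 3 of 5, 3 of 5, 3 of 5 and 3 of 4, and lower under enpatoran in 4, 2, 3, 3 and 2. Under enpatoran bZIP partners were lower in 1, 1, 1, 2 and 0 and higher in 1 (macrophage-like), upstream genes lower in 4, 1, 0, 0 and 1 and higher in 1 each in macrophage-like and pericyte-like nuclei, phosphatases lower in 1, 1, 1, 0 and 1, and MYC network genes lower in 2, 1, 1, 1 and 0.

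The genes with the most similar levels were sought over 63 points (7 classes in 9 libraries), as Pearson's r of log2(CPM + 1) against 10245 genes. The points share libraries, cell types and depth, so r is a description. Fosl1 was nearest to Mt2 (r = 0.86), Sphk1 (0.85) and Cxcl5 (0.84), and Myc to Wdr43 (0.86), Psmd14 (0.84) and Gnl3 (0.84). Junb was nearest to Tubb6 (0.84), Jund to Atp2b4 (0.90), Jun to Dusp1 (0.78), Fosl2 to Stat3 (0.79) and Egr1 to Il1r1 (0.79). Fos (Ik, 0.74), Fosb (Med12, 0.59) and Atf3 (Rrad, 0.56) had weaker nearest genes. Among the members themselves Fosl1 and Myc had r = 0.74 and Fosl1 and Jun r = 0.02.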

How the data were processed

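Nuclei of flash-frozen heart were run on a Chromium droplet kit that reads the transcript's 3′ end, per the labels' protocols. The deposited matrices hold UMI counts per gene and barcode, made with Cell Ranger 8.0.0 per the file headers, while the submitters' processing notes name Cell Ranger 6.1.1, Seurat, GRCh38 and GRCm39, so the version and build are uncertain. Of 32285 gene IDs, 32235 are in the GRCm38 annotation used for positions. The 10 genes and the gene lists were chosen with earlier results of these data known.

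From 56766 barcodes, nuclei with at least 500 genes and at most 5% mitochondrial UMIs were kept (11.8% to 23.7% of barcodes per library were over that limit), and the top 0.8% of Scrublet scores per 1000 barcodes in a library were removed as doublets. Leiden clustering (scanpy 1.11.5, resolution 1, 30 principal components) left out the members, the lists, mitochondrial and sex-linked genes. It gave 28 clusters, which were named from marker sets and of which 1 stayed unnamed. Members and up to 3 called genes per list, class and comparison with a mean of at least 10 CPM are named. The sums of UMIs entered edgeR 4.0.16, with its filterByExpr filter, TMM scaling and quasi-likelihood test (9 libraries, no covariates, threshold 0.05), for each class that had 25 or more nuclei per library, and with the 6 I/R libraries for neutrophil-like nuclei. Interaction fits had the library as a block. Each standard error was derived from the F statistic, by dividing the size of the log2 fold change by the root of F. With 1 to 3 UMIs a ratio has an exact 95% binomial interval. On simulated counts with 200 genes changed by log2 1, edgeR recovered 20.0% to 71.5% of them by class and comparison. Alternatives were DESeq2 1.42.0 size factors and its Wald test, no low-count filter, the 6 libraries of a comparison, a block for the replicate number, a 20% mitochondrial limit, fits that each left out 1 library, at least 1000 genes, doublets kept, Leiden resolution 2, 1 cluster per class (the largest with 25 or more nuclei in every library), and, added later, leaving out the unnamed cluster.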

Additional observations from a re-analysis of the deposited data

Results flagged for a closer look

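In 15 cases the change of a member differed between classes by the interaction test, each given as the log2 difference from cardiomyocyte-like nuclei, where 22.2%, 15.4% and 17.4% of genes differed after injury for fibroblast-like, endothelial-like and macrophage-like nuclei. For fibroblast-like nuclei after injury they were Fos at -2.59 ± 0.45 (SE, edgeR adjusted p = 7.36e-05), Fosb at -5.31 ± 0.86 (SE, edgeR adjusted p = 3.13e-05), Atf3 at -2.19 ± 0.47 (SE, edgeR adjusted p = 0.000875) and Egr1 at -2.48 ± 0.33 (SE, edgeR adjusted p = 1.6e-06). Junb was at -0.88 ± 0.23 (SE, edgeR adjusted p = 0.00441), lost without NS-Sham replicate 3 (log2 -0.57, edgeR adjusted p = 0.0896). For endothelial-like nuclei Egr1 was at -3.19 ± 0.34 (SE, edgeR adjusted p = 6.42e-08) and Myc at 2.17 ± 0.47 (SE, edgeR adjusted p = 0.00128), both called without each library in turn. Fos was at -1.55 ± 0.45 (SE, edgeR adjusted p = 0.0165), lost without any 1 of NS-Sham replicates 2 or 3 or NS-I/R replicates 1 or 2 (log2 -1.42 to -1.23, edgeR adjusted p 0.0573 to 0.151). Fosb was at -3.68 ± 0.86 (SE, edgeR adjusted p = 0.00304), lost without NS-Sham replicate 3 (log2 -1.89, edgeR adjusted p = 0.312). Atf3 was at -1.33 ± 0.46 (SE, edgeR adjusted p = 0.045), lost without any 1 of NS-Sham replicates 1, 2 or 3, NS-I/R replicate 3 or Enpa-I/R replicates 1, 2 or 3 (log2 -1.51 to -0.89, edgeR adjusted p 0.051 to 0.226). For macrophage-like nuclei Jun was at 1.56 ± 0.36 (SE, edgeR adjusted p = 0.00233) and Atf3 at -3.78 ± 0.53 (SE, edgeR adjusted p = 3.7e-06). For enpatoran Fosl1 was at 2.21 ± 0.45 (SE, edgeR adjusted p = 0.00301) in fibroblast-like, 2.49 ± 0.48 (SE, edgeR adjusted p = 0.00269) in endothelial-like and 2.48 ± 0.68 (SE, edgeR adjusted p = 0.0239) in macrophage-like nuclei, where 7.29%, 5.15% and 6.66% of genes differed. The fibroblast-like call was lost without Enpa-I/R replicate 1 (log2 1.504, edgeR adjusted p = 0.0866). The macrophage-like call was lost without any 1 of NS-I/R replicates 1 or 2 or Enpa-I/R replicates 1 or 3 (edgeR adjusted p up to 0.193). Fosl1 was too low for a test within macrophage-like nuclei, so that difference rests on few counts. The macrophage-like count after injury and the counts for enpatoran were near the shares of all genes. Cluster 4, which took different shares of cardiomyocyte-like nuclei in the groups, is part of the cardiomyocyte-like class in each difference. The differences were not refitted at a 20% mitochondrial limit or with doublets kept, where the Xirp2-led cluster left the class.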

How the results depend on the processing

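Of 553 values of called members under other settings, 504 kept direction and call, 48 lost the call and 1 turned: Fosl2 in cardiomyocyte-like nuclei after injury was -0.41 (edgeR adjusted p = 0.698) in cluster 0, the largest of that class with at least 25 nuclei in every library. Leaving out each library in turn kept 433 of 537. Counts called after injury ranged without 1 library from 2 to 4 in smooth muscle-like nuclei, and for enpatoran from 2 to 9 over all nuclei, 1 to 7 in cardiomyocyte-like, 0 to 6 in fibroblast-like, 1 to 5 in endothelial-like, 0 to 4 in macrophage-like, 0 to 9 in pericyte-like, 0 to 2 in smooth muscle-like and 0 to 4 in neutrophil-like nuclei. Counts of class differences ranged from 3 to 5 for endothelial-like nuclei after injury, and for enpatoran from 0 to 1 (fibroblast-like), 1 to 2 (endothelial-like) and 0 to 1 (macrophage-like). With the 6 libraries of a comparison the enpatoran counts were 3 (all nuclei), 1 (fibroblast-like) and 1 (pericyte-like). With a 20% mitochondrial limit cardiomyocyte-like counts were 4 after injury and 2 for enpatoran, and enpatoran counts 5 (endothelial-like) and 2 (macrophage-like). With doublets kept they were 4, 2, 6 and 2. In both settings the Xirp2-led cluster (1428 and 1902 nuclei) lost its name and left the class. In fits within 1 cluster of a class (cluster 0 for cardiomyocyte-like nuclei, where 3 clusters are larger, and the largest cluster of the other classes), which hold fewer nuclei, injury counts were 0, 2, 2 and 3 in cardiomyocyte-like, fibroblast-like, endothelial-like and macrophage-like nuclei, and enpatoran counts 0, 0, 0 and 0. Without the low-count filter injury counts were 7 (fibroblast-like) and 7 (smooth muscle-like), and enpatoran counts 7 (fibroblast-like), 6 (endothelial-like), 3 (macrophage-like), 8 (pericyte-like), 3 (smooth muscle-like) and 1 (lymphatic endothelial-like). DESeq2's Wald test gave enpatoran counts of 2 (macrophage-like), 2 (pericyte-like) and 1 (smooth muscle-like). A minimum of 1000 genes gave 0 (macrophage-like, enpatoran) and 1 (smooth muscle-like, injury). The cause of these moves was not tested. Nothing in the labels says whether the replicate numbers pair the libraries, so pairing is unknown. Same-number correlations were -0.14 to 0.05, and 2 of 9 libraries were most like their own number, which cannot settle it. With the replicate block the pericyte-like enpatoran count was 2, and 5 calls of members were lost: Egr1 after injury (1.51, edgeR adjusted p = 0.0704) and Jun (-0.71, edgeR adjusted p = 0.0621) and Junb (-0.71, edgeR adjusted p = 0.0576) under enpatoran over all nuclei, and pericyte-like Fosl2 (-1.16, edgeR adjusted p = 0.0528) and Atf3 (-1.76, edgeR adjusted p = 0.0608) under enpatoran. Classes under 25 nuclei in a library were not tested, and in smooth muscle-like nuclei 20.0% and 22.0% of genes changed by log2 1 were recovered in simulation.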

Other observations

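Classes too small to test held members as well. Epicardial-like nuclei (80, 50 and 52 in the sham, saline and enpatoran groups) gave 2, 31 and 31 Fos UMIs, or 4.91, 97.5 and 89.6 CPM pooled over each group, and 0, 11 and 3 Fosl1 UMIs. Their Egr1 UMIs were 4, 43 and 12, and their Atf3 UMIs 0, 1 and 15. Schwann-like nuclei (65, 90 and 65) gave 7, 59 and 7 Egr1 UMIs, or 32.7, 183 and 35.9 CPM, and 0, 9 and 5 Myc UMIs. T and NK lymphocyte-like nuclei (91 in NS-I/R) gave 25 Egr1 and 15 Fosl1 UMIs, and the 37 adipocyte-like nuclei of NS-I/R 47 Egr1 and 25 Fosl1 UMIs. Of those 37 adipocyte-like nuclei, 31 came from 1 library. Between NS-I/R libraries Egr1 ran from 7.73 to 336 CPM in Schwann-like and from 16.0 to 192 in T and NK lymphocyte-like nuclei. These are sums with no test.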
